A study of Mus musculus with 24 samples.

Results

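The collapsin response mediator proteins (CRMPs) are 5 neuronal proteins of the cytoplasm, encoded by *Dpysl2*, *Dpysl3*, *Dpysl4*, *Dpysl5* and *Crmp1*, and all 5 genes were found by name among the 15456 genes measured in the mouse medial prefrontal cortex (mPFC). They resemble dihydropyrimidinase, an enzyme of pyrimidine breakdown, but are known for their action on microtubules. CRMP2, the product of *Dpysl2*, binds tubulin heterodimers and promotes the growth of axons, and CRMPs pass the signal of semaphorin 3A from its neuropilin and plexin receptors to the growth cone. Phosphorylation by CDK5 and GSK3 lowers the binding of CRMP2 to tubulin. *Dpysl2* was chosen for its difference between the mice given both treatments and the mice given duloxetine alone, and the 4 other genes were chosen by family, so that values from this contrast are described here without a test.

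RNA came from the mPFC of 24 male BALB/C mice (BALB/c OlaHsd in the methods) aged 11 weeks, in 4 groups of 6 mice with 1 library per mouse. Control mice, labelled as untreated, received PBS by injection and by gavage according to the methods. Duloxetine mice received daily intraperitoneal injections of duloxetine, which blocks the reuptake of serotonin and norepinephrine, *R. flavefaciens* mice were gavaged with living *Ruminococcus flavefaciens*, an anaerobic gut bacterium, and the last group received both. No mouse carried an engineered allele. Values are normalized counts, that is, read counts that the authors divided by a size factor for each library. The reads recovered from them numbered 12811413 to 15607343 per mouse, with group medians of 13591497 in control, 14536037 in duloxetine, 13943370 in *R. flavefaciens* and 14621655.5 in combined mice.

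Markers of the tissue were present in every mouse. *Slc17a7*, the vesicular glutamate transporter of cortical excitatory neurons, had 21844 to 27335 normalized counts, and *Gad1*, an enzyme of GABA synthesis in inhibitory neurons, had 3628 to 4210. A pair of mice stood apart by markers of neighbouring tissue. The summed level of 7 striatal markers was 5790 in *R. flavefaciens* mouse 8_4 and 3298 in combined mouse 11_4, compared to at most 2316 in any other mouse. The summed level of the choroid plexus markers *Ttr*, *Kl* and *Clic6* was 791 in mouse 8_4 and 119 in mouse 11_4, compared to at most 152 in any other mouse, so that only mouse 8_4 stood apart by this sum. *Ttr*, the most specific of them, was at 0 in 3 mice and at 657 in mouse 8_4. Results for *Dpysl2* are therefore also given without these mice, a choice made after seeing the data.

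*Dpysl2* had the highest mean level per length of the CRMP genes. Per 1000 bases of its merged exons it had 1006 ± 95.6 normalized counts (SD, n = 24 mice). By the same measure *Crmp1*, which encodes CRMP1, had 360 ± 23.1, *Dpysl3*, which encodes CRMP4, had 112 ± 12.2, *Dpysl4*, which encodes CRMP3, had 92.4 ± 7.27, and *Dpysl5*, which encodes CRMP5, had 61.2 ± 11.1. Neighbours in this order kept it in all 24 mice, with the exception of *Dpysl3* and *Dpysl4*, which kept it in 22. The ratio of *Dpysl2* to *Crmp1* depended on the length used, at 2.81 ± 0.292 with merged exons and 1.21 ± 0.126 with the longest transcript, where *Dpysl2* was higher in 22 of 24 mice, since *Crmp1* has 10 annotated transcripts, with 7046 bases of merged exons and 3051 in the longest. With the longest transcript *Dpysl3* and *Dpysl4* were not apart, with a ratio of 1.03 ± 0.116 and *Dpysl3* higher in 15 of 24 mice.

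The genes lie on different chromosomes of GRCm38, apart from *Dpysl5* and *Crmp1*. *Dpysl2* (ENSMUSG00000022048.8) spans chr14:66802864-66868688 on the minus strand and has 1 annotated transcript of 4520 bases. *Dpysl3* (ENSMUSG00000024501.19) spans chr18:43320979-43438286 on the minus strand, and *Dpysl4* (ENSMUSG00000025478.15) spans chr7:139086001-139102704 on the plus strand. Among the members only *Dpysl3* has different positions in the deposited data and in GENCODE vM21, from which the lengths came. *Dpysl5* (ENSMUSG00000029168.14) and *Crmp1* (ENSMUSG00000029121.15) both lie on the plus strand, at chr5:30711564-30799375 and chr5:37241940-37292133. All 5 are protein coding. *Crmp1* overlaps *Evc* on the opposite strand, but their exons share 0 bases.

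*Dpysl2* was highest in the duloxetine group and lowest in the group given both treatments. In control mice its normalized count ranged from 4495 to 5110 with a median of 4737. In duloxetine mice it ranged from 4416 to 5201 with a median of 5053, overlapping the control range on both sides. In *R. flavefaciens* mice it ranged from 3871 to 4708 with a median of 4484, so that 3 of 6 mice lay below every control mouse. In combined mice it ranged from 3803 to 4315 with a median of 4088, and all 6 lay below every control and every duloxetine mouse. The corresponding means were 4802 ± 244 (SD, n = 6) in control, 4946 ± 294 in duloxetine, 4374 ± 318 in *R. flavefaciens* and 4070 ± 186 in combined mice. Fewer cells that express a gene and less of its RNA per cell cannot be told apart in such tissue.

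**Figure D1:**
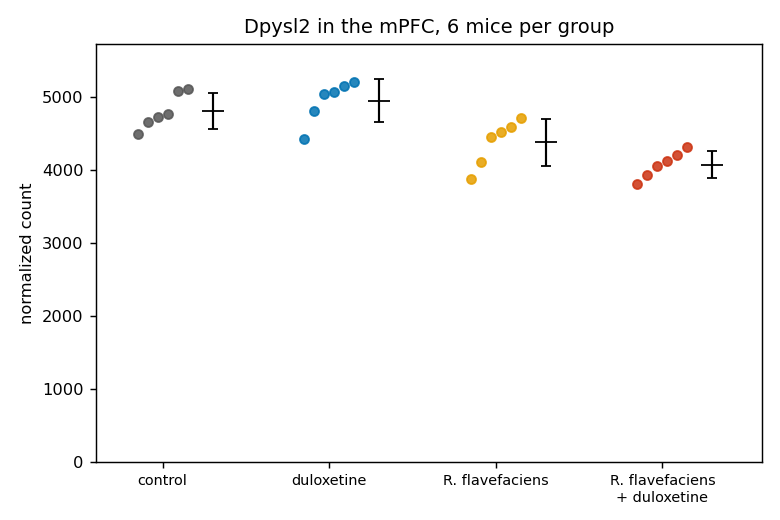
Normalized count of *Dpysl2* in each mouse (points, sorted within each group) by treatment group, with the mean and SD of 6 mice beside them. The combined group, from 3803 to 4315, lies below all control and all duloxetine mice, whereas the *R. flavefaciens* group, from 3871 to 4708, overlaps control.

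The contrast by which *Dpysl2* was chosen gave a log2 fold change of -0.28 (SE 0.051) in combined compared to duloxetine mice, or 0.824 times the duloxetine level. The combined and the duloxetine mice also enter the comparisons with control, so neither the log2 fold change of -0.24 in combined compared to control mice nor that of 0.042 in duloxetine compared to control mice was tested. Compared to *R. flavefaciens* alone, combined mice had a log2 fold change of -0.10. Genes with all combined mice below all duloxetine mice made up 0.127% of the genes tested, and genes with all combined mice below all control mice 1.16%. Without mice 8_4 and 11_4 the log2 fold change between combined and duloxetine mice was -0.29. The comparisons with control share their control mice.

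The comparison of *R. flavefaciens* alone with control compares groups other than those of the contrast that chose *Dpysl2*, but its SE comes from the spread of all 24 mice. Here *Dpysl2* had a log2 fold change of -0.14 (SE 0.051, 95% interval -0.24 to -0.033), or 0.910 times the control level, and all 6 *R. flavefaciens* mice lay below the control mean. It did not pass the threshold over all genes (limma adjusted p = 0.143), although its unadjusted p was under 0.05. An exact two-sided permutation test of this gene alone gave p = 0.0238, where 0.00216 is the smallest value that 6 against 6 mice allow. Limma called 0.0267% of all genes in this comparison at an adjusted p under 0.05, and 19.6% had an unadjusted p under 0.05. The 4 genes behind 0.0267% became 616 without mouse 9_2, 427 without mouse 8_3 and 239 without mouse 9_1, whereas 0 were called in a fit of only the groups compared or when 1_1, 2_2, 2_3 (all control) or 9_3 was the mouse left out. With quantile normalization the log2 fold change of *Dpysl2* was -0.085. Without mice 8_4 and 11_4 the log2 fold change was -0.12 with a limma adjusted p of 0.258.

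In the control group, *Dpysl2* did not overlap between mice with different first numbers in their labels. Control mice 3_1 and 3_3 had 5110 and 5078 normalized counts, the 3 mice with first number 2 had 4654 to 4756, and mouse 1_1 had 4495. In the *R. flavefaciens* group mouse 7_2 had 3871, the mice with first number 8 had 4110 and 4521, and those with first number 9 had 4447 to 4708, so that numbers 8 and 9 overlapped. In the duloxetine group the mice with first number 5 had 4416 to 5201, which encloses the 4799 to 5069 of number 6. In the combined group mouse 10_2 had 3803, and the mice with first numbers 11 (3924 and 4202) and 12 (4053 to 4315) overlapped. The meaning of the number is not stated, and each number occurs in 1 group only. With a random block for it, whose estimated correlation over all genes was -0.045, the log2 fold change of *R. flavefaciens* compared to control was -0.13 (limma adjusted p = 0.117). This fit uses that 1 correlation for every gene, so it does not adjust for the grouping of *Dpysl2* values by number. All genes called numbered 221 with the block and 4 without it.

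*Dpysl3* had a lower mean than control in each treated group. Its product, CRMP4, acts on actin and microtubules in growing neurites. In control mice it ranged from 735 to 895 normalized counts (median 800), in duloxetine mice from 680 to 787 (median 773), in *R. flavefaciens* mice from 653 to 870 (median 666) and in combined mice from 601 to 792 (median 682). Of 6 mice each, 4 *R. flavefaciens* and 4 combined mice lay below every control mouse, and every group overlapped control. The log2 fold change was -0.23 (SE 0.077, limma adjusted p = 0.155) in combined compared to control mice and -0.18 (limma adjusted p = 0.189) in *R. flavefaciens* compared to control mice. For duloxetine compared to control it was -0.11 (limma adjusted p = 1.00).

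*Dpysl5*, whose product CRMP5 is found in developing neurons and in oligodendrocytes, was the most variable member. Its coefficient of variation was 23.2% in both groups given the bacterium, compared to 12.1% in control and 13.0% in duloxetine mice. In the combined group this rested on mouse 11_4, without which it was 13.1%. Normalized counts ranged from 411 to 564 (median 495) in control, from 350 to 509 (median 456) in duloxetine, from 310 to 558 (median 429) in *R. flavefaciens* and from 358 to 638 (median 427) in combined mice. The groups overlapped throughout, and the highest combined value came from mouse 11_4, which also had high striatal markers. The log2 fold change of combined compared to *R. flavefaciens* mice was 0.095, and -0.012 without that mouse (limma adjusted p = 0.748 and 0.971). The largest log2 fold change, -0.26 in *R. flavefaciens* compared to control mice, had an SE of 0.14 and a limma adjusted p of 0.289.

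*Crmp1* and *Dpysl4* differed little in mean between groups. *Crmp1* had 2580 ± 74.6 normalized counts (SD, n = 6) in control, 2541 ± 99.5 in duloxetine, 2553 ± 159 in *R. flavefaciens* and 2467 ± 269 in combined mice, whose range of 2190 to 2899 reached past the control range on both sides. *Dpysl4* had 567 ± 56.7 in control, 541 ± 25.3 in duloxetine, 556 ± 61.3 in *R. flavefaciens* and 547 ± 24.7 in combined mice. For *R. flavefaciens* compared to control the 95% interval of the log2 fold change was -0.13 to 0.095 for *Crmp1* and -0.16 to 0.11 for *Dpysl4*. For combined compared to control mice it was -0.18 to 0.042 and -0.18 to 0.089. For *Crmp1*, 4 of 6 combined mice lay below and 1 above every control mouse. Its log2 fold change there was -0.071 (limma adjusted p = 0.521), and -0.12 without mouse 10_2.

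**Figure D2:**
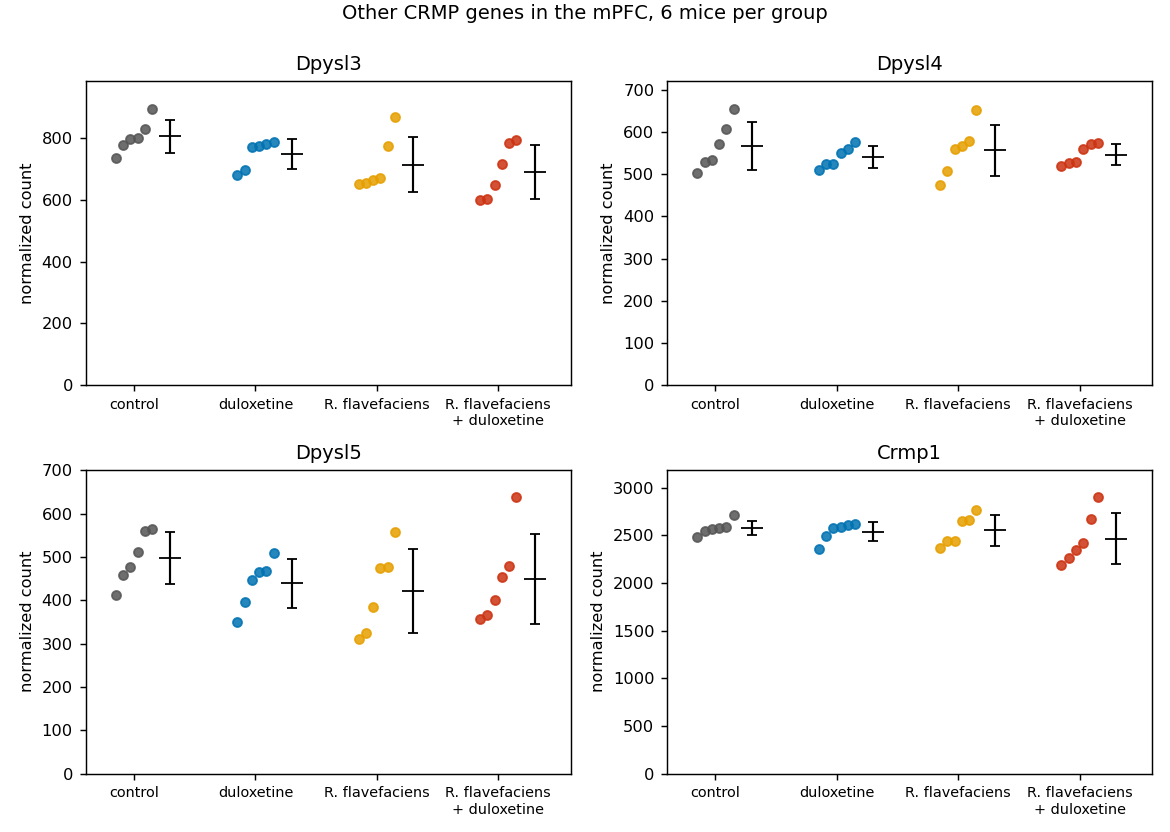
Normalized counts of *Dpysl3*, *Dpysl4*, *Dpysl5* and *Crmp1* in each mouse (points, sorted within each group) by treatment group, with the mean and SD of 6 mice beside them. All groups overlap for each gene, and the combined group is widest for *Crmp1*, from 2190 to 2899.

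In no comparison tested did a member pass the threshold. The count was 0 of 5 for *R. flavefaciens* compared to control, with 2 members (*Dpysl2* and *Dpysl3*) at an unadjusted limma p under 0.05, against 0.0267% of all genes called and 19.6% at an unadjusted p under 0.05. Of the 4 other members 0 were called for combined compared to control mice, with *Dpysl3* at an unadjusted p under 0.05. The background there was 0.1% of all genes called and 16.8% at an unadjusted p under 0.05. The 15 genes behind 0.1% became 5 to 154 with 1 mouse left out and 196 in a fit of only the groups compared. Duloxetine compared to control had 0 of 4 members by either rule, against 0.0% of all genes called and 3.83% at an unadjusted p under 0.05. Combined compared to *R. flavefaciens* mice also had 0 of 4 by either rule, although 2.23% of all genes were called and 19.7% had an unadjusted p under 0.05. That background of 334 genes called fell to 47 without combined mouse 11_3 and to 0 in a fit of only the groups compared, and rose to 577 without *R. flavefaciens* mouse 8_4. DESeq2 and edgeR on the recovered reads called 0 members in these comparisons. Of all genes DESeq2 called 484 for *R. flavefaciens* and 201 for combined compared to control mice, and edgeR called 4 and 10. For combined compared to *R. flavefaciens* mice DESeq2 and edgeR called 614 and 324, and for duloxetine compared to control 1 and 0.

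**Figure D3:**
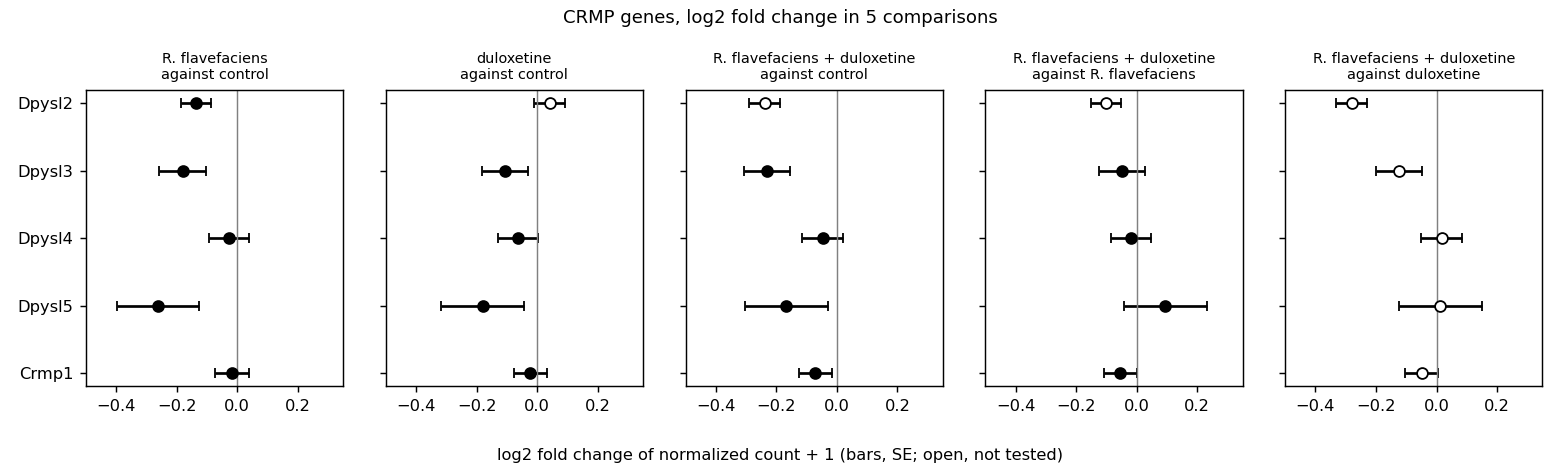
Log2 fold change (horizontal axis) with its SE (bars) of the 5 CRMP genes in 5 comparisons of 6 against 6 mice, with filled points where a test was made and open points where the gene or contrast was used for the choice. *Dpysl2* lies at -0.14 for *R. flavefaciens* and at -0.24 for both treatments compared to control, and *Dpysl4* and *Crmp1* lie close to 0 in every panel.

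As a share of all normalized counts of the family, *Dpysl2* made up 51.9 ± 1.60% in control (SD, n = 6), 53.6 ± 1.96% in duloxetine, 50.7 ± 1.77% in *R. flavefaciens* and 49.5 ± 1.97% in combined mice. The family sum was 9252 ± 324 in control, 9215 ± 294 in duloxetine, 8618 ± 382 in *R. flavefaciens* and 8223 ± 248 in combined mice. The combined sums, from 7817 to 8474, lay below the lowest control sum of 8880. The ratio of *Dpysl2* to the sum of the other 4 genes was 1.08 ± 0.0671 in control and 0.983 ± 0.0759 in combined mice. Since *Dpysl2* was chosen for its level in combined mice, the shares and sums are descriptions.

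*Dpysl3* and *Dpysl5* varied together from mouse to mouse, whereas *Dpysl2* did not vary with the rest of its family. After group means were taken off, Pearson's r over 24 mice was 0.77 between *Dpysl3* and *Dpysl5*, 0.49 between *Dpysl4* and *Dpysl5* and -0.55 between *Dpysl5* and *Crmp1*. For *Dpysl2* it was 0.18 with *Dpysl5*, 0.18 with *Dpysl4*, -0.026 with *Dpysl3* and -0.15 with *Crmp1*. The genes share the libraries and their depth, and these values are given as a description.

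Marker genes of cell types and layers moved with some members and little with *Dpysl2*. A score for each of 13 marker lists was the mean log2 level of its genes relative to all mice. Within groups, the score of 5 deep layer markers, led by *Bcl11b*, had r = 0.74 with *Dpysl5* and 0.67 with *Dpysl3*, and that of 5 upper layer markers had r = -0.74 with *Dpysl5*. The score of 6 inhibitory neuron markers, led by *Gad1*, had r = -0.58 with *Dpysl3* and -0.48 with *Dpysl5*. *Crmp1* had r = -0.67 with 10 oligodendrocyte markers, led by *Mbp*, and -0.74 with 6 markers of oligodendrocyte precursors. It also had r = -0.60 with blood, -0.59 with astrocyte and -0.44 with endothelial cell markers, and 0.57 with upper layer and 0.52 with excitatory neuron markers. *Dpysl5* had r = 0.57 with oligodendrocyte and 0.51 with striatal markers, and *Dpysl4* had -0.58 with upper layer markers. For *Dpysl2* all 13 values lay between -0.23 (astrocytes) and 0.23 (excitatory neurons), and that with deep layers was 0.10.

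The mean deep layer score, like those of *Dpysl3* and *Dpysl5*, was lower in each treated group than in control. It was 0.13 ± 0.077 (SD, n = 6) in control, 0.076 ± 0.23 in duloxetine, -0.15 ± 0.24 in *R. flavefaciens* and -0.050 ± 0.13 in combined mice. The summed level of its 5 genes was 5670 ± 287 normalized counts in control, 5544 ± 607 in duloxetine, 4845 ± 683 in *R. flavefaciens* and 5000 ± 317 in combined mice, and no deep layer gene was at 0 in any mouse. Of the 5 genes 3 had an unadjusted limma p under 0.05 for *R. flavefaciens* compared to control, where 19.6% of all genes did, and 0 passed the adjusted threshold. Blood markers, led by *Hbb-bs*, had summed levels of 349 ± 65.7 in control, 462 ± 265 in duloxetine, 598 ± 204 in *R. flavefaciens* and 633 ± 351 in combined mice. Microglia markers, led by *Csf1r*, had 3566 ± 187, 3968 ± 364, 4034 ± 318 and 4140 ± 566 in the same order. An unadjusted p under 0.05 was found for 4 of 5 blood markers in *R. flavefaciens* and 5 of 5 in combined mice compared to control, and for 0 of 5 in duloxetine mice. For microglia markers it was found for 4 of 7 in *R. flavefaciens* mice, 4 of 7 in duloxetine mice, where 3.83% of all genes had such a p, and 5 of 7 in combined mice, where 16.8% did. Inhibitory neuron markers had summed levels of 10051 ± 464 in control, 10003 ± 356 in duloxetine, 10927 ± 388 in *R. flavefaciens* and 10460 ± 651 in combined mice. Of these 6 genes 3 had an unadjusted p under 0.05 for *R. flavefaciens* compared to control, with a median log2 fold change of 0.13. For combined compared to control mice such a p was found for 3 of 7 astrocyte and 3 of 6 endothelial cell markers. Their median log2 fold changes were 0.16 and 0.17. For *R. flavefaciens* compared to control mice the counts were 1 of 7 and 1 of 6. Excitatory neuron markers had 2 of 6 for *R. flavefaciens* (median -0.039) and 0 of 6 for combined mice (median -0.11) compared to control. Limma called 0 of these blood, microglia, neuron, astrocyte and endothelial cell markers at an adjusted p under 0.05 in any comparison. The part of these cells and layers in the levels of the CRMP genes was not tested.

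**Figure D4:**
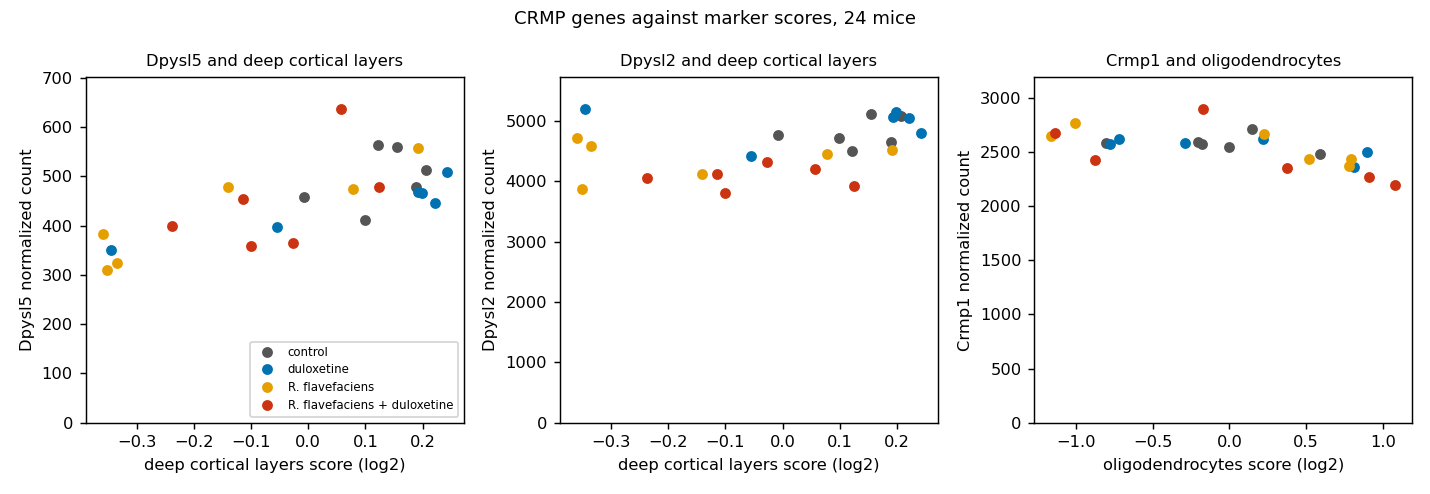
Normalized counts of *Dpysl5* and *Dpysl2* against the score of deep layer markers, and of *Crmp1* against the score of oligodendrocyte markers (log2, relative to all mice), with 1 point per mouse coloured by group. After group means were taken off, r over 24 mice was 0.74, 0.10 and -0.67 in the panels from left to right.

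The genes most like *Dpysl2* were found by Pearson's r of log2 levels over 24 mice among 10541 other genes with a mean of at least 100. *Tnfrsf21*, a death domain receptor of neurons, had the highest at 0.75, followed by *Smarca4*, an ATPase of chromatin remodelling complexes, at 0.73, *Lrrn3*, a leucine-rich repeat protein of neurons, at 0.71, *Myadm* at 0.70 and *Aars2*, the mitochondrial alanyl-tRNA synthetase, at 0.70. Among the lowest values were -0.67 for *Ilvbl* and -0.66 for *Scnm1*. The differences between groups contribute to these values. After group means were taken off the list was led by *Ccar1* at 0.76, *Synj2bp* at 0.74, *Hexim1* at 0.73, *Dnajb1*, a co-chaperone, at 0.72 and *Pim2*, a kinase, at 0.72. The lowest were then *Prps2* at -0.74 and *Pde8b*, a phosphodiesterase of cAMP, at -0.70. The nearest CRMP gene, *Dpysl3*, ranked 1223 as measured with r = 0.37.

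Genes that act before, with and after the CRMPs were described from 7 lists with 60 genes, of which 57 were in the table and tested. They comprise semaphorin ligands and receptors, kinases and a phosphatase of CRMPs, binding partners, tubulins, other microtubule and growth cone proteins, and pyrimidine breakdown enzymes. Only *Map2*, for combined compared to *R. flavefaciens* mice, passed the adjusted threshold in any of the 5 comparisons. This was 1 of 57 genes, where 2.23% of all genes were called. At an unadjusted limma p under 0.05 were 18 of 57 genes for *R. flavefaciens* compared to control, 4 higher and 14 lower, or 31.6% compared to 19.6% of all genes. The median log2 fold change of the 57 genes was -0.0018, compared to 0.0031 for all genes tested. After removal of the trend with merged exon length the count at an unadjusted p under 0.05 was 7 of 57, or 12.3% compared to 12.9% of all genes. The part of length in this count was not tested. DESeq2 on the recovered reads called 4 of the 57 genes in this comparison (*Cacna1b*, *Map1b*, *Plxna2* and *Stmn4*) of 484 called among all genes, and edgeR called 0 of 4. Limma without *R. flavefaciens* mouse 9_2 called 6 of the 57, of 616 called among all genes.

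Among the 7 class 3 semaphorins, secreted ligands that guide axons, 5 had a log2 fold change below 0 for *R. flavefaciens* compared to control. The values ran from -0.29 to 0.30, with a median of -0.064. An unadjusted limma p under 0.05 was found for 2 of 7, or 28.6% compared to 19.6% of all genes. After removal of the length trend it was found for 1 of 7 (12.9% of all genes). *Sema3e* and *Sema3c* had the smallest p-values in this comparison. *Sema3e* ranged from 477 to 647 normalized counts in control mice, from 476 to 624 in duloxetine, from 365 to 550 in *R. flavefaciens* and from 407 to 535 in combined mice, with a log2 fold change of -0.29 (SE 0.094, limma adjusted p = 0.106) for *R. flavefaciens* compared to control. The groups overlapped. *Sema3c* had a fold change of -0.18 on the log2 scale (limma adjusted p = 0.142). *Sema3a*, the ligand first linked to CRMP2, had 485 ± 49.5 in control, 506 ± 63.6 in duloxetine, 418 ± 101 in *R. flavefaciens* and 414 ± 59.1 in combined mice. Its log2 fold change was -0.24 (limma adjusted p = 0.274) for *R. flavefaciens* and -0.23 (limma adjusted p = 0.328) for both treatments compared to control.

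The receptors of these ligands had lower means in *R. flavefaciens* than in control mice for 6 of 7 genes. The median log2 fold change was -0.22, and -0.13 after removal of the length trend. *Plxna2*, a plexin that binds neuropilins, ranged from 3048 to 3384 in control, from 2930 to 3295 in duloxetine, from 1789 to 3045 in *R. flavefaciens* and from 2570 to 3072 in combined mice. All 6 *R. flavefaciens* mice lay below all control mice, with a log2 fold change of -0.29 (SE 0.084, limma adjusted p = 0.0847). Such a separation from control was seen in 0.835% of all genes tested for lower and in 0.788% for higher *R. flavefaciens* mice. *Plxna4* had -0.31 (limma adjusted p = 0.105), *Nrp1*, the neuropilin that binds SEMA3A, had -0.28 (limma adjusted p = 0.148), and *Plxna1* had -0.21 (limma adjusted p = 0.161). In the combined group *Nrp1* had 459 ± 41.7 normalized counts, compared to 535 ± 64.0 in control and 551 ± 66.2 in duloxetine. In the fit of all 24 mice limma called 0 of 7 receptors in any comparison, whereas DESeq2 called *Plxna2* for *R. flavefaciens* compared to control, as did limma without mouse 8_3, 9_1 or 9_2. The number of all genes called was 484 with DESeq2 and 427, 239 and 616 without these mice, compared to 4 with limma and all mice. At an unadjusted limma p under 0.05 were 4 of 7 receptors in this comparison, where 19.6% of all genes were. Without mice 8_4 and 11_4 there were also 4 of 7 (17.0% of all genes), and after removal of the length trend 3 of 7 (12.9% of all genes).

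Among the kinases and the phosphatase, 3 of 12 genes had an unadjusted p under 0.05 for *R. flavefaciens* compared to control, 1 higher and 2 lower, or 25% compared to 19.6% of all genes, with a median log2 fold change of -0.0081. There were 0 of 12 after removal of the length trend (12.9% of all genes) and 1 of 12 without mice 8_4 and 11_4 (17.0% of all genes). Of the 12 genes, 7 had a log2 fold change below 0 in the fit of all mice. The 1 higher gene at an unadjusted p under 0.05 in that fit was *Cdk5*, the kinase that phosphorylates CRMP2. It had 1326 ± 117 normalized counts in *R. flavefaciens* and 1233 ± 25.0 in control mice (log2 fold change 0.10, limma adjusted p = 0.219). *Rock2*, a kinase that acts on the actin cytoskeleton, ranged from 5251 to 5822 in control and from 3763 to 5753 in *R. flavefaciens* mice, with a fold change of -0.22 on the log2 scale (limma adjusted p = 0.136). *Gsk3b*, which phosphorylates CRMP2 after CDK5, had -0.18 (limma adjusted p = 0.157). *Cdk5r1*, the p35 activator of CDK5, had 6254 ± 220 normalized counts in control and 6263 ± 549 in *R. flavefaciens* mice. For combined compared to control mice it had a fold change of -0.12 on the log2 scale (limma adjusted p = 0.314), and *Ppp2cb*, a catalytic subunit of the phosphatase PP2A, had -0.11 (limma adjusted p = 0.265).

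Of 10 binding partners, 2 had an unadjusted limma p under 0.05 for *R. flavefaciens* compared to control, or 20% compared to 19.6% of all genes. Their median log2 fold change over the list was -0.0049. *Cacna1b*, the pore subunit of the N-type calcium channel that CRMP2 binds, was the binding partner with the smallest p-value. It ranged from 2208 to 2505 in control, from 1985 to 2489 in duloxetine, from 1478 to 2160 in *R. flavefaciens* and from 1948 to 2421 in combined mice. All *R. flavefaciens* mice lay below all control mice, as was the case for 0.835% of all genes tested (log2 fold change -0.26, SE 0.073, limma adjusted p = 0.0806). *Nf1*, which encodes neurofibromin, had -0.25 (limma adjusted p = 0.133). *Klc1*, the kinesin light chain through which CRMP2 is carried in axons, had 11009 ± 309 in control, 10879 ± 254 in duloxetine, 11236 ± 690 in *R. flavefaciens* and 10441 ± 659 in combined mice.

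Tubulins, the direct partners of CRMP2, had lower means in combined than in *R. flavefaciens* mice for 8 of 9 genes. The median log2 fold change was -0.13, and 7 of 9 had an unadjusted p under 0.05, compared to 19.7% of all genes, but 0 passed the adjusted threshold. Without mice 8_4 and 11_4 there were 8 of 9 (19.5% of all genes), and after removal of the length trend 6 of 9 (20.2% of all genes). *Tuba1b* ranged from 1992 to 2629 normalized counts in *R. flavefaciens* mice and from 1856 to 2236 in combined mice, with 4 of 6 combined mice below all *R. flavefaciens* mice (log2 fold change -0.13, limma adjusted p = 0.180). Combined compared to control mice had 5 of 9 tubulins at an unadjusted p under 0.05, compared to 16.8% of all genes. This count was 8 of 9, with 7 lower, after removal of the length trend (18.3% of all genes) and 3 of 9 without mice 8_4 and 11_4 (15.9% of all genes). Of the 5 genes, 4 were lower, such as the alpha tubulin *Tuba4a* at -0.19 on the log2 scale (limma adjusted p = 0.209). *Tubb2b*, a beta tubulin of young neurons, was higher at 0.23 (limma adjusted p = 0.227). Tubulin genes are similar in sequence, and how reads that match several of them were counted is not given in the sources used here.

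*Map2*, which stabilizes microtubules in dendrites, ranged from 21668 to 23044 normalized counts in control, from 22298 to 24160 in duloxetine, from 14776 to 23750 in *R. flavefaciens* and from 22291 to 27123 in combined mice. It was higher in combined than in *R. flavefaciens* mice, with a log2 fold change of 0.28 (SE 0.076, limma adjusted p = 0.0485), although only 2 of 6 combined mice lay above every *R. flavefaciens* mouse. Without mice 8_4 and 11_4 the log2 fold change was also 0.28, but the call was lost (limma adjusted p = 0.0747). The adjusted p was under 0.05 in 15 of 36 fits, the first included. The call was also lost in a fit of only the groups compared, with the same log2 fold change of 0.28 (limma adjusted p = 0.242), and after removal of the length trend, where the log2 fold change was 0.17 (limma adjusted p = 0.0889). The highest adjusted p with 1 mouse left out was 0.123, without combined mouse 11_3. Compared to control, combined mice had a *Map2* log2 fold change of 0.097 (limma adjusted p = 0.531), and *R. flavefaciens* mice had -0.19 (limma adjusted p = 0.176).

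Of the 11 microtubule and growth cone genes, *Map2* included, 2 were higher and 4 lower in *R. flavefaciens* than in control mice at an unadjusted p under 0.05, or 54.5% compared to 19.6% of all genes. After removal of the length trend 1 was higher and 1 lower, or 18.2% compared to 12.9% of all genes. *Map1b*, a microtubule protein of growing axons, ranged from 24230 to 26355 in control, from 22912 to 27286 in duloxetine, from 15633 to 24358 in *R. flavefaciens* and from 21086 to 25291 in combined mice. Its log2 fold change was -0.29 (SE 0.078, limma adjusted p = 0.0745) for *R. flavefaciens* compared to control. *Stmn4*, a stathmin that sequesters tubulin, ranged from 1791 to 2010 in control and from 2059 to 2533 in *R. flavefaciens* mice, all of which lay above every control mouse (log2 fold change 0.20, limma adjusted p = 0.0806). Such a separation was seen in 0.788% of all genes tested. *Dpyd*, the first enzyme of pyrimidine breakdown, was the 1 gene of its list in the table, at 51.2 ± 12.4 in control and 44.8 ± 7.51 in *R. flavefaciens* mice, which overlapped.

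**Figure D5:**
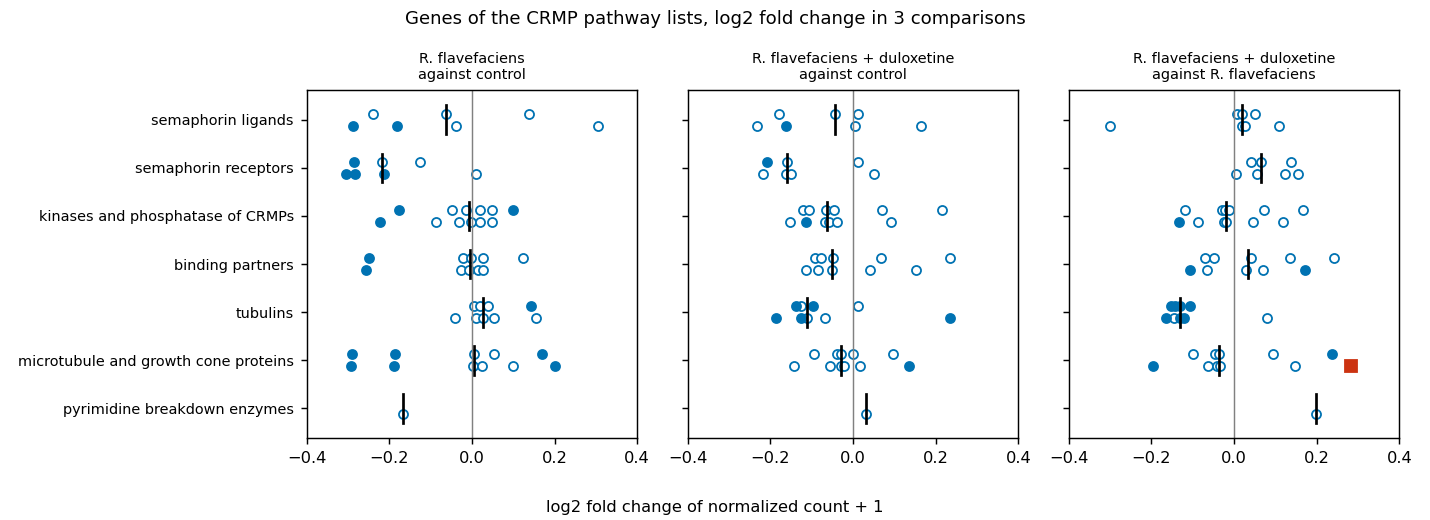
Log2 fold change (horizontal axis) of the 57 genes tested in 7 lists, for *R. flavefaciens* and both treatments compared to control and for both treatments compared to *R. flavefaciens*, with 1 point per gene, filled at an unadjusted limma p under 0.05, a square where the adjusted p was under 0.05 (*Map2*, 0.28) and a black line at each list's median. Semaphorin receptors lie mostly left of 0 in the left panel (median -0.22, or -0.13 after removal of the length trend) and tubulins in the right panel (median -0.13).

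In the contrast by which *Dpysl2* was chosen, the pathway genes were tested but not the family. Of 57 genes 0 were called, with 0.0% of all genes called, and 6 had an unadjusted p under 0.05, all of them lower in combined than in duloxetine mice, or 10.5% compared to 5.9% of all genes. They included the ligands *Sema3a* at a log2 fold change of -0.29, *Sema3e* at -0.23 and *Sema3c* at -0.17 and the receptor *Nrp1* at -0.26, each with a limma adjusted p of 0.816. All genes called in this contrast numbered 1 with DESeq2 and 0 to 2 with 1 mouse left out, with 2 without mouse 9_3. Pathway genes called stayed at 0 in each of these fits. For the other members of the family the log2 fold change in this contrast was -0.12 for *Dpysl3*, -0.049 for *Crmp1*, 0.017 for *Dpysl4* and 0.013 for *Dpysl5*, without a test. Duloxetine compared to control had 0 of 57 pathway genes at an unadjusted p under 0.05, where 3.83% of all genes were. Limma, DESeq2 and edgeR each called 0 of the pathway genes, where they called 0, 1 and 0 of all genes.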

How the data were processed

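Non-stranded poly(A) libraries of 24 mouse mPFCs were sequenced, and the methods give TopHat2 and GRCm38.p5 for mapping. The submitters' processing notes name TopHat2 2.1.0, Bowtie2 2.2.6 and DESeq2 1.18.1, and the build mm9. Positions in the table matched GENCODE vM21 on GRCm38 for 14285 of 15456 genes, so GRCm38 was used. The deposited signal values are gene counts that the authors normalized with DESeq2, 1 size factor per library. Of the non-zero values 99.997% were whole multiples of 1 step per column, within a tolerance of 0.0051. Multiples were taken as recovered reads, whose sum per mouse (median 14455107) was used as depth.

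Tests were made on log2(value + 1) by limma 3.58.1 (R 4.3.3, trended prior) for the 14974 genes whose mean reached 10. All 4 groups entered 1 fit, tests were two-sided, and p-values were adjusted over all genes within a comparison (Benjamini-Hochberg, threshold 0.05). Fold changes are on this log2 scale. P-values set a difference between groups against the spread between mice within groups, estimated over all 4 groups. DESeq2 1.42.0 and edgeR 4.0.16 were run on recovered reads as alternatives.

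The members and gene lists were chosen with earlier results of these data known. Named pathway genes are those past the threshold in any comparison, and from each list the 2 with the smallest p for *R. flavefaciens* and the 2 for both treatments compared to control. Outside this rule, *Cdk5* was named as the 1 higher gene of its list at an unadjusted p under 0.05 for *R. flavefaciens* compared to control. *Stmn3* was named as a gene called in alternative fits. Genes like *Dpysl2* are the 5 highest and 3 lowest by Pearson's r, before and after group means were taken off. Some genes that these rules name are not reported here. Lengths came from GENCODE vM21. Alternatives were a pseudocount of 0.1, no filter or a minimum mean of 50, only the groups compared, quantile and upper-quartile scaling, DESeq2, edgeR, a random block by first label number, subtraction of a loess trend with length, the longest transcript, each mouse left out, and, added after seeing the data, mice 8_4 and 11_4 left out together. Tables and figures were made with Python 3.11.15, pandas 2.3.3, numpy 2.4.6, scipy 1.17.1 and matplotlib 3.10.9.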

Additional observations from a re-analysis of the deposited data

Results flagged for a closer look

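In 5 of 108 sets of 6 mice, for the 5 CRMP genes and the 22 pathway genes named by rule in 4 groups, the highest or lowest mouse stood far from the others. Chance alone gives such a gap in about 1 in 20 sets. None of the 5 was a CRMP gene. *Cacna1b*, which encodes the N-type calcium channel, had 1477.5 normalized counts in *R. flavefaciens* mouse 9_3, whereas the other mice of that group had 1905 to 2160, and 1984.7 in duloxetine mouse 6_2, whereas the others had 2317 to 2489. *Plxna2*, a semaphorin receptor, was highest in control mouse 2_3 at 3383.9, compared to 3048 to 3164 in the other control mice. *Sema3c*, a semaphorin ligand, was highest in duloxetine mouse 6_3 at 617.52, compared to 551 to 568. *Tuba1b*, an alpha tubulin, was highest in combined mouse 10_2 at 2236, compared to 1856 to 1994.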

How the results depend on the processing

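The log2 fold change of *Dpysl2* for *R. flavefaciens* compared to control stayed negative and its limma, DESeq2 or edgeR adjusted p stayed above 0.05 under all 35 alternatives, from -0.14 to -0.085 (quantile normalization) with an adjusted p of 0.0864 to 0.395 over 11 settings and from -0.16 to -0.10 with 1 mouse left out. For combined compared to duloxetine mice it ranged from -0.29 to -0.24 over 11 settings and from -0.31 to -0.26 with 1 mouse left out. The number of CRMP genes called was 0 under every alternative in the 4 comparisons tested. Of 560 values for the other 4 members, 551 kept their sign and 9 reversed, all with an adjusted p above 0.05, and the cause was not tested. *Dpysl3* for combined compared to *R. flavefaciens* mice ranged from -0.091 to 0.0091 with 1 mouse left out and was above 0 only without mouse 8_3. *Dpysl4* for *R. flavefaciens* compared to control became 0.015 without control mouse 1_1 and 0.017 without mouse 9_1 (lowest value with 1 mouse left out -0.075), and for combined compared to *R. flavefaciens* mice 0.00096 with upper-quartile rescaling and 0.028 without mouse 9_3 (lowest -0.064). *Dpysl5* for combined compared to *R. flavefaciens* mice became -0.012 without mouse 11_4 (highest with 1 mouse left out 0.18). *Crmp1* for *R. flavefaciens* compared to control became 0.021 with quantile normalization, 0.029 after removal of the length trend and 0.0042 without mouse 9_2 (lowest with 1 mouse left out -0.040). Pathway genes called for *R. flavefaciens* compared to control numbered 4 with DESeq2, 1 (*Map1b*) with the random block, 0 to 6 with 1 mouse left out and 0 under the remaining settings, with 6 without mouse 9_2 and 2 (*Map1b* and *Plxna2*) without mouse 8_3 or 9_1. In these fits all genes called numbered 484 with DESeq2, 221 with the block, and 616, 427 and 239 when mouse 9_2, 8_3 or 9_1, respectively, was left out, compared to 4 with limma and all mice. For combined compared to *R. flavefaciens* mice 0 pathway genes were called in a fit of only the groups compared. The count was also 0 after removal of the length trend and without mice 8_4 and 11_4. It was 2 (*Map2* and *Stmn3*) with DESeq2 and with the random block. With 1 mouse left out it was 0 to 2, and 0 in 17 of 24 fits. All genes called numbered 0 with only the groups compared, 377 after removal of the length trend and 349 without mice 8_4 and 11_4. They numbered 614 with DESeq2, 533 with the block and 47 to 577 with 1 mouse left out, compared to 334 with limma and all mice. *Map2* remained past the threshold in 15 of 36 fits, the first included. With the longest transcript the level per 1000 bases was 135 for *Dpysl3*, 132 for *Dpysl4*, 87.0 for *Dpysl5* and 831 for *Crmp1*, since fewer bases are counted. After removal of the length trend 19 of 57 pathway genes had an unadjusted p under 0.05 for combined compared to control mice, or 33.3% compared to 18.3% of all genes, and 9 before, or 15.8% compared to 16.8%. For both treatments compared to control, all genes called numbered 15 with limma, 201 with DESeq2, 196 in a fit of only the groups compared, and with 1 mouse left out 5 to 154, with 154 without mouse 12_4 and 123 without mouse 9_3. No paired analysis was possible because the label of each mouse is unique and the groups share no replicate numbers. Precision is limited by 6 libraries per group, and differences smaller than about 0.1 on the log2 scale for *Dpysl2* lie within 2 standard errors.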
